A study of Arabidopsis thaliana with 4 samples.

Results

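CPC, MYBL2, TRY and ETC1 encode small MYB proteins with a single MYB repeat, and the study lists each of them as a direct target of the trichome regulator GL3, and of GL1. The 4 genes were taken by their probe sets on the Affymetrix ATH1 array, out of 22746 probe sets tested. The rule names the genes and sets no threshold on their values, but the genes were chosen with earlier results of these data known. Their loci are AT2G46410 (CPC), AT1G71030 (MYBL2), AT5G53200 (TRY) and AT1G01380 (ETC1). By the labels, RNA was extracted from green tissue of Arabidopsis thaliana when the plants were 20 days old, and 2 genotypes with 2 arrays each were compared. The gl3 egl3 plants carried mutations in both GL3 and EGL3, with no allele named by the labels, and form no leaf trichomes. The wild type plants were of the Landsberg erecta (L. er) accession. The titles of the gl3 egl3 samples name no accession, so a difference of accession, if there was any, cannot be told apart from the mutations. The labels state neither how many plants were pooled for an array nor whether the genotypes were grown together, and the study's text gives a younger age and more replicates for this comparison than the labels, which were followed here. Its methods can also be read as taking whole wild type plants, in which case tissue and genotype cannot be told apart.

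GL3 and EGL3 are basic helix-loop-helix (bHLH) proteins that join the MYB protein GL1 and the WD-repeat protein TTG1 in a complex that turns a leaf epidermal cell into a trichome, a hair made of 1 cell. The same complex switches on genes of single-repeat MYB proteins. Of these proteins, CPC, TRY and ETC1 bind the bHLH partner in place of GL1, lack a region that activates transcription, and so form inactive complexes. CPC moves into neighbouring cells and holds them back from the trichome fate, a process called lateral inhibition, in which TRY and ETC1 act with partial redundancy. In the root the same family promotes the hair cell fate. MYBL2 is best known as a repressor of anthocyanin synthesis, which depends on related MYB-bHLH complexes, and its overexpression suppresses trichomes. The comparison asks whether transcripts of these inhibitors differ in plants without GL3 and EGL3.

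The oligonucleotides that the study used on 2 of these genes show which stretches it examined, and they were not part of the arrays. The pair for MYBL2 amplified the promoter stretch scored for binding of GL3 and GL1 in chromatin immunoprecipitation, and the pair for CPC amplified its transcript in real-time RT-PCR. All are written 5′ to 3′.
MYBL2 promoter, oligonucleotide A1: tgcgacacacttccacattc
MYBL2 promoter, oligonucleotide B1: agaagcgtgcatgctcaatc
CPC transcript, forward: ttggcgacaggtgggagttgat
CPC transcript, reverse: aacgacgccgtgtttcataag

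Values are log2 expression values that the authors made with GCRMA, a method that corrects each probe for background and pulls weak probe sets down to a common low value. Values under 3 are called the low end here, where 37.7% to 38% of the probe sets of each array lay and where differences are compressed. The arrays had medians of 4.92 to 4.99. EGL3, mutated in gl3 egl3, had 2.31 and 2.31 in gl3 egl3, against 2.30 and 2.30 in wild type. The label of the mutant could thus not be checked by EGL3, which was at the low end in both genotypes, and the transcript of GL3 was not analysed here. Among markers of the tissue, the photosynthesis genes RCA and LHCB4.1 lay between 12.48 and 13.39 on all 4 arrays. The root hair expansin genes EXPA7 and EXPA18 lay at 2.15 to 2.16, while the root beta-glucosidase gene PYK10 had 10.04 and 11.04 in gl3 egl3, against 10.75 and 10.64 in wild type. Of 9 trichome genes listed, 6 were measured, which here means that a probe set could be named for them. Genes of a list that were not measured may still be on the array. Of the 6, 4 (GL2, TTG2, MYB23 and STI) were at the low end on every array, while SIM and ZWI lay between 6.35 and 6.81. In bulk tissue, fewer cells of a type and less RNA per cell cannot be told apart.

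MYBL2 and CPC had lower values in gl3 egl3 than in wild type, and both gl3 egl3 arrays lay below both wild type arrays for each. Such an order held for 2883 of 22746 probe sets, or 12.7%. MYBL2 was 2.66-fold lower, while CPC was at the low end in gl3 egl3, so that no exact fold can be given for it. TRY and ETC1 lay at the low end on all 4 arrays, with differences of 0.08 and -0.07. None of the 4 genes passed an adjusted p under 0.05 in limma, and neither did any other probe set (0 of 22746, or 0%). At an unadjusted p under 0.01, the level of the study's methods, MYBL2 was the 1 gene of the 4 in limma, as were 278 probe sets in its direction, or 1.22% of those tested, and 740, or 3.25%, in either direction. That call was lost with the methods' t-test, where the p of MYBL2 was 0.0153 and none of the 4 genes passed, and with the replicate number as a block in limma, where it was 0.0112.

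**Figure D1:**
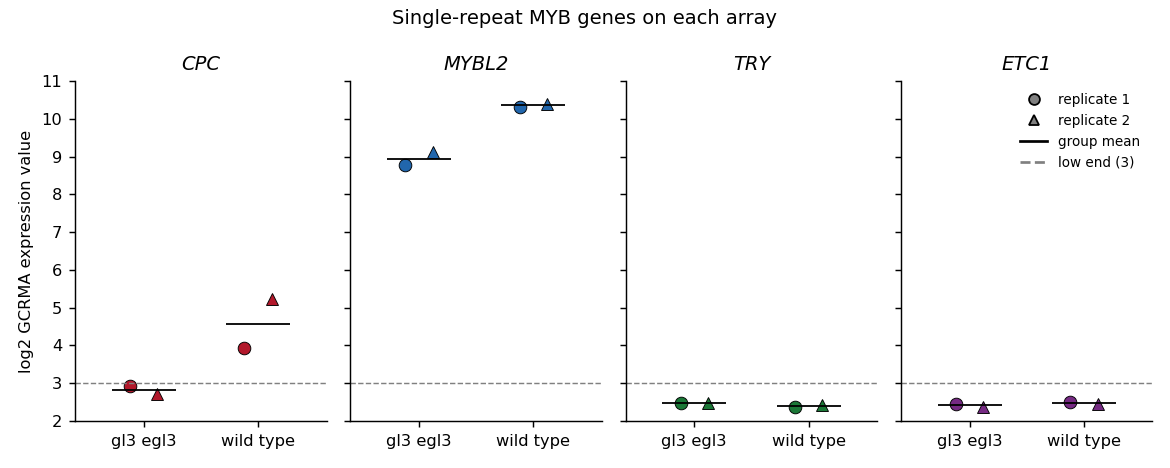
Log2 GCRMA expression value of each gene on each array, with gl3 egl3 left of wild type, 1 symbol per replicate, a line at the group mean and a dashed line at 3, the low end of the scale. MYBL2 is near 9 in gl3 egl3 and above 10 in wild type, CPC is above the dashed line only in wild type, and TRY and ETC1 are under it on all 4 arrays.

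CPC, the inhibitor that moves between epidermal cells, had log2 values of 2.92 and 2.72 in gl3 egl3, against 3.92 and 5.23 in wild type. Both gl3 egl3 arrays were at the low end and both wild type arrays above it, and wild type replicate 2 was far above wild type replicate 1. On the linear scale these values correspond to 7.59 and 6.57 in gl3 egl3, against 15.1 and 37.6 in wild type. The means were 2.82 ± 0.148 in gl3 egl3, against 4.58 ± 0.93 in wild type (± SD, n = 2 each). The log2 difference was -1.76 with an SE of 0.58, a 95% interval of -3.77 to 0.25 and a limma adjusted p of 0.591. The interval takes in 0, and the size of the difference rests on gl3 egl3 values at the low end. The 2 wild type arrays were 1.31 apart, and only 0.919% of all probe sets had wild type arrays at least as far apart. Depending on which arrays of the 2 groups are set against each other, CPC was lower in gl3 egl3 by 0.99 to 2.52 on the log2 scale. Its difference was -2.41 when wild type replicate 1 was left out, and -1.10 when wild type replicate 2 was. It was -0.82 with 16 added to the linear values, which compresses differences between low values.

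A pattern like that of CPC, with both wild type arrays at 3 or more and both gl3 egl3 arrays under 3, was seen for 50 probe sets, or 0.22% of those tested. The opposite pattern was seen for 54, or 0.237%.

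TRY, named for the clusters of trichomes that form without it, had 2.47 and 2.48 in gl3 egl3, against 2.36 and 2.43 in wild type. Both gl3 egl3 arrays lay above both wild type arrays, by a gap of 0.05 at the closest. Such an order was common, since it held for 38.1% of all probe sets, against 12.7% with both gl3 egl3 arrays below. The means were 2.48 ± 0.0037 in gl3 egl3, against 2.39 ± 0.0459 in wild type (± SD, n = 2 each). The log2 difference of 0.08 had an SE of 0.03, a 95% interval of -0.03 to 0.19 and a limma adjusted p of 0.652. The unadjusted p was 0.0949, and 0.00566 after quantile normalization, where the limma adjusted p was 0.293. Over all probe sets, of every level, 55.1% differed by as much or more in either direction. Among probe sets at the low end on all 4 arrays, as TRY was, the median absolute difference was smaller, at 0.00912.

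ETC1, whose loss enhances the patterning defects of plants without TRY and CPC, had 2.44 and 2.38 in gl3 egl3, against 2.51 and 2.45 in wild type. Both gl3 egl3 arrays lay below both wild type arrays, with 0.01 between the nearest of them. The means were 2.41 ± 0.0425 in gl3 egl3, against 2.48 ± 0.038 in wild type (± SD, n = 2 each). The log2 difference was -0.07 with an SE of 0.04, a 95% interval of -0.20 to 0.06 and a limma adjusted p of 0.789, and 57.5% of all probe sets differed by as much or more in either direction. The probe set of ETC1 is of a type that can also bind related transcripts, so its value may not be that of ETC1 alone. For probe sets at the low end on all 4 arrays, which were 8014 or 35.2% of those tested, the median absolute difference was 0.00912. The narrow intervals of TRY and ETC1 hold for these compressed values and do not show that the transcripts were alike in both genotypes.

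MYBL2, the repressor of anthocyanin genes, had log2 values of 8.77 and 9.12 in gl3 egl3, against 10.32 and 10.40 in wild type. The groups were separated by 1.20 at the closest, and no array lay near the low end. On the linear scale the values were 437 and 555 in gl3 egl3, against 1277 and 1348 in wild type. The means were 8.94 ± 0.244 in gl3 egl3, against 10.36 ± 0.0551 in wild type (± SD, n = 2 each). The log2 difference was -1.41 with an SE of 0.16 and a 95% interval of -1.95 to -0.88, or 1.84-fold to 3.87-fold lower in gl3 egl3. The unadjusted p was 0.00469 and the limma adjusted p 0.249. Over all probe sets, 135 were as low in difference or lower, MYBL2 and CPC included, or 0.594%. The spread lay mainly in gl3 egl3, whose arrays were 0.35 apart, against 0.08 in wild type. Leaving out 1 array at a time gave differences of -1.59 to -1.24, and the unadjusted limma p exceeded 0.01 when a wild type array was missing, at 0.0531 for replicate 1 and 0.0575 for replicate 2.

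**Figure D2:**
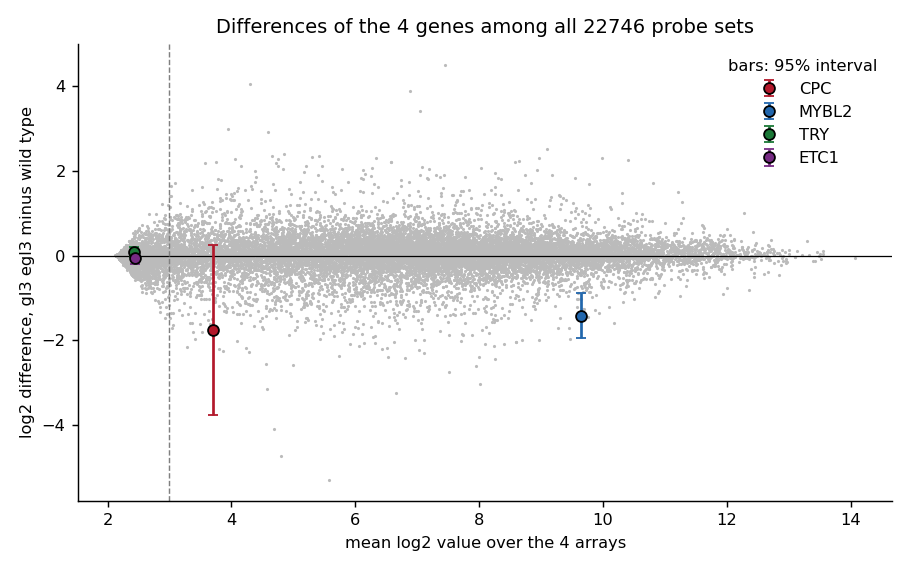
Log2 difference, gl3 egl3 minus wild type, against the mean log2 value over the 4 arrays, for all 22746 probe sets in grey and the 4 genes in colour with their 95% intervals from limma. The dashed line marks 3, the low end. MYBL2 is far below the band of most probe sets of its level with an interval of -1.95 to -0.88, while that of CPC crosses 0.

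Read as a group, 3 of the 4 genes had both gl3 egl3 arrays below both wild type arrays, against 12.7% of all probe sets. Of the 4, 2 were lower by more than 1 on the log2 scale, against 1.7%, although CPC was not with 16 added. The 4 genes were chosen with earlier results of these data known, so these shares are a description and not an independent comparison. The median difference of the 4 was -0.74, against 0.00576 over all probe sets. It lies midway between MYBL2 and ETC1 and is the value of no gene, since TRY and ETC1 differed by 0.08 and -0.07. ETC1 adds to the count of 3 with a gap of 0.01 only. Whether CPC and MYBL2 differed between the genotypes by more than TRY and ETC1 was not tested. Of the 8 single-repeat MYB genes listed, ETC2, CPL3, TCL1 and TCL2, which also hold back trichomes, had no named probe set and were not analysed here.

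**Figure D3:**
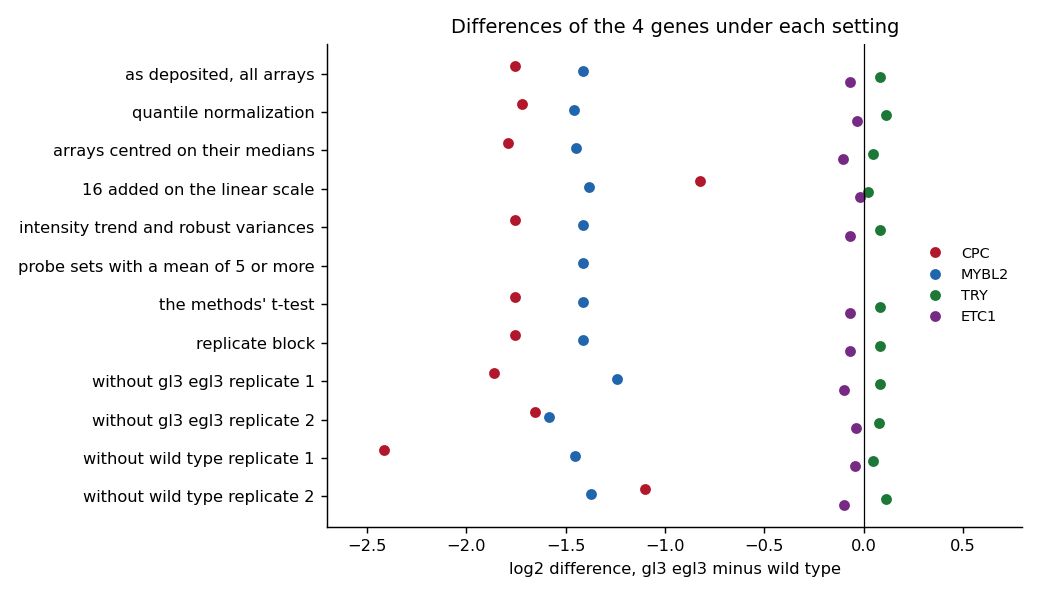
Log2 difference, gl3 egl3 minus wild type, of the 4 genes under each setting of the processing, with 1 point per gene. MYBL2 stays between -1.59 and -1.24, CPC ranges from -2.41 to -0.82, and TRY and ETC1 stay close to 0.

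The partners that these inhibitors compete with or bind differed by -0.14 to 0.23 between the genotypes. TTG1, the WD-repeat protein of the complex, had 8.29 and 7.81 in gl3 egl3, against 8.10 and 8.28 in wild type, with overlapping groups and a difference of -0.14 (SE 0.22). GL1 had 2.35 and 2.24 in gl3 egl3, against 2.21 and 2.23 in wild type, and MYC1, a bHLH gene close to GL3, had 2.52 and 2.99 in gl3 egl3, against 2.54 and 2.52 in wild type. GL1, EGL3, MYC1 and MYB23, a MYB gene close to GL1, were at the low end on all 4 arrays. Of 15 listed genes of such complexes, 5 were measured, 0 had an unadjusted p under 0.01 in either direction, and the median difference was 0.00439, against 0.00596 over all 13338 named genes. GEM, a repressor of GL2 and CPC in the root epidermis, was the 1 gene measured of 4 listed regulators of the inhibitors. It had 6.61 and 6.88 in gl3 egl3, against 6.70 and 6.05 in wild type, with overlapping groups.

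Among 18 listed direct targets of GL3, GL1 or both, 14 were measured, and MYBL2 was the 1 with an unadjusted p under 0.01 in limma, a call lost in the settings given above, while TRY also passed after quantile normalization. The median difference of the 14 was 0.06, with 9 means higher and 5 lower in gl3 egl3. Over all 13338 named genes the split was similar, with 8651 means higher and 4687 lower. CPC and MYBL2 were the 2 lowest, and the next was SCL8, a GRAS family regulator, which had 6.02 and 5.41 in gl3 egl3, against 5.53 and 6.30 in wild type, with overlapping groups. The positive regulators GL2 and TTG2 were at 2.20 to 2.47 on all arrays. AT1G77670, an aminotransferase gene, had the highest difference, 0.28 (SE 0.06), with 6.66 and 6.60 in gl3 egl3, against 6.29 and 6.41 in wild type.

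**Figure D4:**
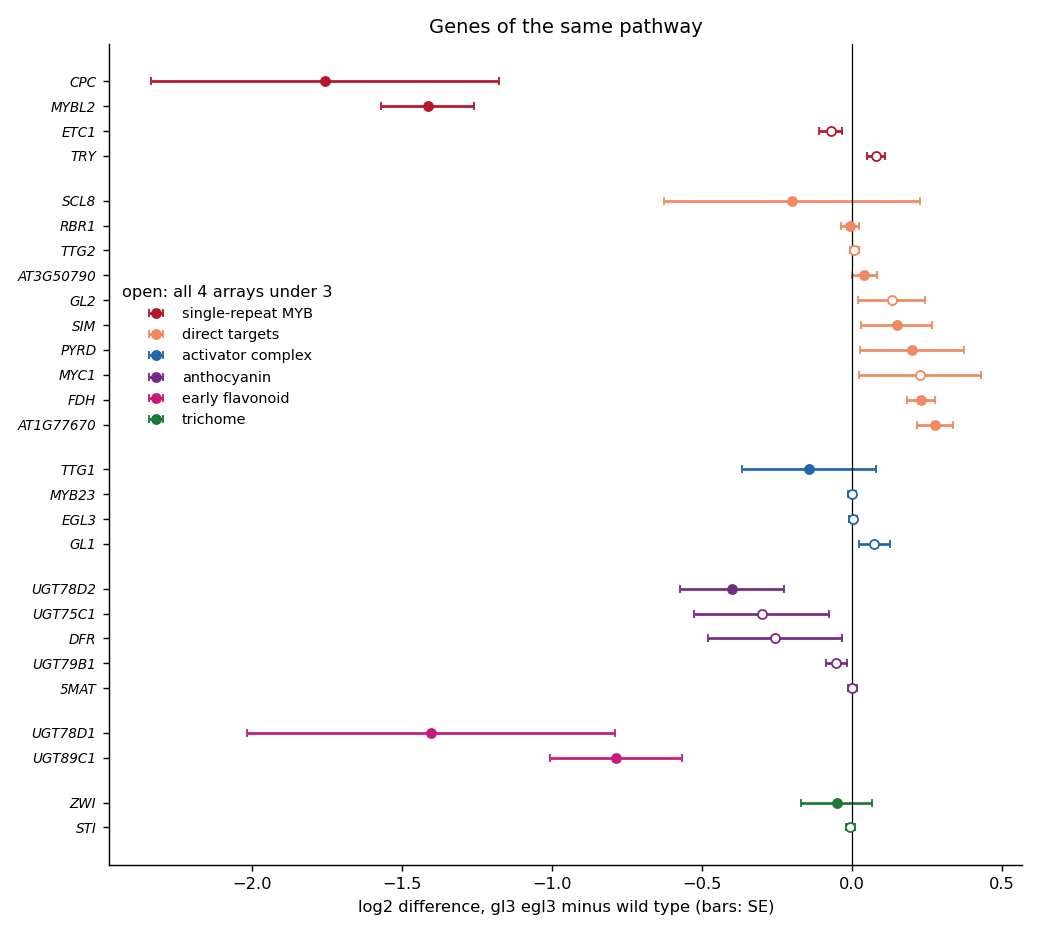
Log2 difference, gl3 egl3 minus wild type, with its SE from limma, for the measured genes of 6 lists, each gene shown once. Open symbols are genes under 3 on all 4 arrays. Besides CPC and MYBL2, UGT78D1 and UGT89C1 are farthest below 0, and the other direct targets lie between -0.20 and 0.28.

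Flavonoid genes were compared because MYBL2 is known to repress the anthocyanin branch of that pathway. The anthocyanin list holds 10 genes, of which 5 had a named probe set. Of these, 4 had both gl3 egl3 arrays below both wild type arrays, against 12.7% of all probe sets. The list was also chosen with earlier results of these data known, so this share is a description only. UGT78D2, a flavonoid glucosyltransferase gene, had 5.28 and 5.31 in gl3 egl3, against 5.90 and 5.50 in wild type, and differed by -0.40 (SE 0.17, limma adjusted p 0.705). UGT75C1, an anthocyanin glucosyltransferase gene, had 2.21 and 2.21 in gl3 egl3, against 2.77 and 2.25 in wild type, and differed by -0.30 (SE 0.22). DFR, the reductase that opens the anthocyanin branch, had 2.16 and 2.16 in gl3 egl3, against 2.67 and 2.16 in wild type, and UGT79B1, another glycosyltransferase gene of this branch, differed by -0.05. For DFR and UGT79B1 the nearest arrays of the groups rounded to the same value, 2.16 for DFR and 2.29 for UGT79B1. These 3 and the acyltransferase gene 5MAT lay at the low end on all arrays.

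Of the early flavonoid list, UGT78D1 and UGT89C1, whose enzymes attach sugars to flavonols, were the 2 genes measured of 9. UGT78D1 had 7.56 and 6.26 in gl3 egl3, against 8.57 and 8.05 in wild type, and UGT89C1 had 2.46 and 2.40 in gl3 egl3, against 3.47 and 2.97 in wild type. Neither group overlapped with the other for these genes, and the limma adjusted p was 0.705 and 0.525. UGT89C1 was at the low end on every array but wild type replicate 1. Apart from 5MAT, the flavonoid genes measured and CPC did not share the wild type array on which they were higher. UGT78D2, UGT75C1, DFR, UGT78D1 and UGT89C1 were all higher on wild type replicate 1 than on replicate 2, by about 0.40 or more. CPC was higher on replicate 2, and MYBL2 differed by 0.08 between the wild type arrays. On wild type replicates 1 and 2, UGT79B1 had 2.34 and 2.29, and 5MAT had 2.18 on both.

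Markers of other cells of green tissue were set beside the members. All 3 measured epidermis genes of 10 listed had higher means in gl3 egl3, as did 8651 of all 13338 named genes. The differences were 0.23 for FDH, a cuticle gene, and 0.34 for both the receptor kinase gene ACR4 and the wax gene CER3. FDH is also among the listed direct targets of GL3 and GL1, so it is not a marker independent of the mutated genes. ACR4 overlapped between the groups. The log2 values of the 3 summed to 24.03 and 22.74 in gl3 egl3, against 22.54 and 22.39 in wild type. Of 5 guard cell lineage genes, 3 were measured, whose log2 values summed to 12.97 and 12.45 in gl3 egl3, against 12.99 and 13.25 in wild type, and FAMA, which sets guard cell fate, differed most, by -0.25 (SE 0.33). Their part in the values of CPC and MYBL2 was not tested.

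The genes next to the members on the chromosome were looked up in the order of the TAIR10.1 annotation. LPR2, directly beside MYBL2 and known for its part in root responses to low phosphate, had 7.63 and 7.43 in gl3 egl3, against 8.03 and 8.14 in wild type. Its difference was -0.56 (SE 0.10, limma adjusted p 0.373), in the direction of MYBL2 and smaller, while AT1G71020 on the other side differed by 0.07 (SE 0.05). AT2G46420, directly beside CPC, had 7.46 and 6.60 in gl3 egl3, against 8.06 and 7.30 in wild type, so that the groups overlapped, with a difference of -0.65 (SE 0.50). AT2G46380, the nearest measured gene on the other side of CPC with 2 genes between them, was at the low end. SPCH, which starts the stomatal lineage and lies beside TRY, had 2.37 and 2.32 in gl3 egl3, against 2.34 and 2.35 in wild type, and SWEET3 on the other side differed by 0.00. Beside ETC1, HTR12, the centromeric histone gene, differed by 0.23 (SE 0.44) and AT1G01390 by -0.03 (SE 0.03).

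The genes whose pattern over the 4 arrays was most like that of CPC and MYBL2 were sought by the root mean square distance between profiles, each centred on its own mean, among 7700 other named probe sets with a mean of 3 or more. For MYBL2 they were AT4G11300 (distance 0.08), AT1G63840 (0.08) and AT3G04640 (0.10). AT4G11300 had 4.94 and 5.16 in gl3 egl3, against 6.33 and 6.58 in wild type. For CPC they were AT5G03230 (0.19), AT1G73480 (0.23) and AT5G17340 (0.25), and all 3 were higher on wild type replicate 2 than on replicate 1. AT5G03230 had 8.64 and 8.49 in gl3 egl3, against 9.53 and 10.52 in wild type. With 4 arrays this likeness is a description of these arrays only. None of the 6 genes passed the limma adjusted threshold, and the smallest adjusted p was 0.168, that of AT1G63840.

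**Figure D5:**
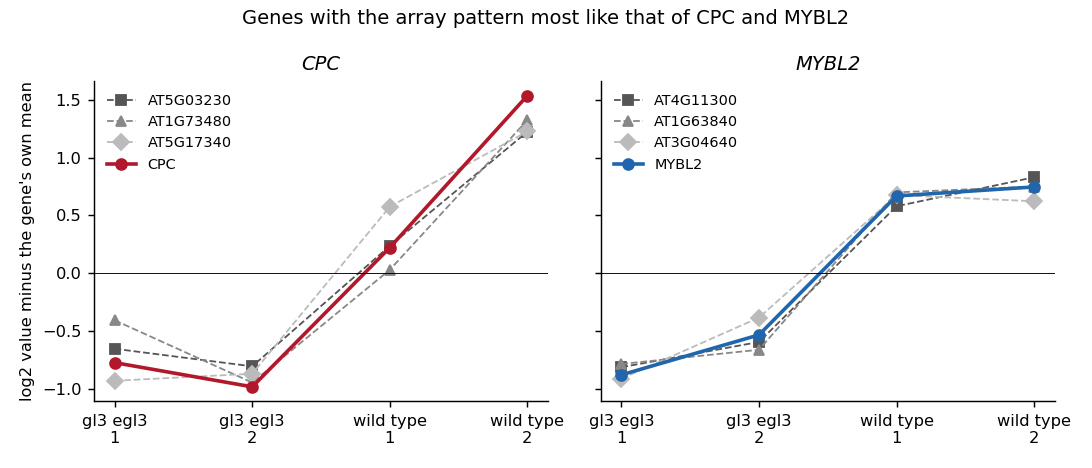
Log2 value minus the gene's own mean on each array, gl3 egl3 left of wild type, for CPC (left panel) and MYBL2 (right panel) in colour and the 3 genes with the most similar profile in grey. Lines only join the values of 1 gene. CPC and the genes like it are highest on wild type replicate 2, while MYBL2 and the genes like it differ little between the wild type arrays.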

How the data were processed

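The authors deposited a log2 value for each probe set, made with GCRMA from ATH1 array images through AffylmGUI in R. The version of GCRMA is not given in the sources used here. Per the labels, total RNA was amplified before labelling. The table holds 22810 probe sets, and 64 controls of the array were dropped. The platform annotation gave 13513 probe sets 1 symbol, 503 several and 8730 none, and 13436 of the first kind were matched to RefSeq (TAIR10.1). It names TRY. CPC, MYBL2 and ETC1 took their names from identifiers that the study lists beside its trichome genes, and this source named 53 probe sets in all, these included, and gave the same locus in 14 of 14 cases that could be compared. A gene with several probe sets was represented by the one with the highest mean.

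Differences (gl3 egl3 minus wild type) were fitted with limma 3.58.1 in R 4.3.3 (lmFit, eBayes) on all 4 arrays and 22746 probe sets, two-sided, with Benjamini-Hochberg adjustment over all of them and a threshold of 0.05. There were 2 residual degrees of freedom, with 0.623 from the prior. The methods describe biologically independent material, and the small number of arrays limits the precision. The script was tested on simulated data. The members and gene lists were chosen with earlier results of these data known.

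Named are the members, the other measured genes of the family, from each list the genes at an unadjusted p under 0.01 or otherwise the 2 with the largest difference, the 3 genes most like CPC and MYBL2 in pattern, and chromosomal neighbours. Further list genes are named for their role and were chosen after their values were seen. Alternatives were other scalings, an added constant, a filter, another variance model, the methods' t-test, a replicate block and leaving out each array.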

Additional observations from a re-analysis of the deposited data

How the results depend on the processing

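Quantile normalization, median centring and the added constant kept the sign of the difference of all 4 genes. The other alternatives could not change it, since they use the same values or leave out an array where the groups do not overlap, and the filter at a mean of 5 leaves out CPC, TRY and ETC1. No member passed an adjusted p under 0.05 under any alternative, and the adjusted p of MYBL2 ranged from 0.0986 in limma with the filter to 0.679 with the methods' t-test. The count of probe sets past an adjusted p of 0.05 was 0 throughout. In limma without any of the alternatives it was 1 at a threshold of 0.1, and that probe set was none of the 4 genes. The number of the 4 genes at an unadjusted p under 0.01, a result added after seeing the data, was 2 with quantile normalization (MYBL2 and TRY), 0 with the methods' t-test, 0 with the replicate block, and 0 to 1 on leaving out single arrays, where the spread of a group left with 1 array is taken from the other genotype. The cause was not tested. The number of probe sets lower in gl3 egl3 at that level was 118 with the methods' t-test. That test pools the spread of the 2 genotypes within each probe set, and takes none from other probe sets. On leaving out single arrays the number was 175 to 905. The 175 came without gl3 egl3 replicate 2 and the 905 without wild type replicate 1, and dropping wild type replicate 2 gave 676. Leaving out arrays gave differences of -2.41 to -1.10 for CPC, -1.59 to -1.24 for MYBL2, 0.05 to 0.11 for TRY and -0.10 to -0.04 for ETC1. Samples of the 2 groups share only a number. The deviations of same-numbered arrays correlated at 0.134 across probe sets, and with the replicate block 278 probe sets were lower at an unadjusted p under 0.01, of which 101 were so without it. With the block MYBL2 had an unadjusted p of 0.0112 and a limma adjusted p of 0.352, and CPC 0.122 and 0.584. CPC, TRY and ETC1, 3 of the 4 genes, had at least 1 group at the low end, where the scale limits what can be seen.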
